A study of Mus musculus with 10 samples.

Results

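The matrix metalloproteinases (MMPs), the ADAMTS proteases, their ADAMTS-like relatives and the tissue inhibitors of metalloproteinases (TIMPs) are described here in fat of mice with and without serglycin. The members are all rows of the count table whose symbol is Mmp or Timp with a number, or Adamts or Adamtsl with a number. There are 51 of them among 23930 rows, namely 23 MMPs, 4 TIMPs, 19 ADAMTS proteases and 5 ADAMTS-like proteins. The RNA was that of epididymal fat, a visceral depot, from male C57BL/6 mice aged 18 weeks, all given for 8 weeks a feed high in sucrose and fat. The 2 groups were 5 wild-type samples (Srgn+/+) and 5 Srgn-knockout samples (Srgn-/-), 1 library each, and which exons of Srgn are deleted is not stated in the labels. Each gene was read at 1 short amplicon with the Ion AmpliSeq mouse transcriptome kit, so levels are compared between libraries and not between genes.

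MMPs and ADAMTS proteases are secreted or membrane-bound enzymes that hold a zinc ion in their active site and cut proteins of the extracellular matrix. Most are made as inactive precursors, are activated by removal of a propeptide, and are blocked by TIMPs, which fill the active site. In growing fat the matrix around adipocytes is cut and rebuilt, and both stromal cells and macrophages are known to make these enzymes. Serglycin carries negatively charged sugar chains that bind proteases in secretory granules, and it has been described as a partner of MMP-9.

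The MMP genes include 1 large group of neighbours, 10 members no more than 500 kb apart from the next (Mmp7, Mmp20, Mmp27, Mmp8, Mmp10, Mmp1a, Mmp1b, Mmp3, Mmp12 and Mmp13, by the RefSeq annotation of GRCm38). Of these 10 only Mmp7, Mmp12, Mmp3 and Mmp27 had enough reads to be tested. The start-site windows of 4 of them are shown because the groups of results below part these neighbours: Mmp3 and Mmp12 rose with the macrophage markers of the libraries, Mmp7 did not pass that test, and Mmp10 was hardly read, while all 4 hold the same motif near the start. The windows run from 250 bases before to 50 bases after the start and are RefSeq sequences of build GRCm38.p6, all on the plus strand, at chr9:7445572-7445871 (Mmp3), chr9:7347124-7347423 (Mmp12, the window of its 2 that holds the motif), chr9:7691840-7692139 (Mmp7, likewise) and chr9:7502092-7502391 (Mmp10). Capitals mark TGAGTCA, the core motif of the AP-1 transcription factors, searched on both strands, where it reads TGACTCA on the other.
Mmp3: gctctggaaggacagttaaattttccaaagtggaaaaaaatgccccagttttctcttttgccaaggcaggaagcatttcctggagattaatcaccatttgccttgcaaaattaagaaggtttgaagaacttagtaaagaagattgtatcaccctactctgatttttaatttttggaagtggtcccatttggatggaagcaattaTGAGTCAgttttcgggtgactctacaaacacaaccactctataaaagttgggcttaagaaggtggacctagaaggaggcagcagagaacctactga
Mmp12: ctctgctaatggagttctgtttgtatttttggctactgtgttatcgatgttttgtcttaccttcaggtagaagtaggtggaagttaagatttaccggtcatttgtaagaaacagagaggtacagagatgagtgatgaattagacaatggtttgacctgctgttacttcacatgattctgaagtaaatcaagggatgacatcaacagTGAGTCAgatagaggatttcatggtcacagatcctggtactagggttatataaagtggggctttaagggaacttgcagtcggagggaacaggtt
Mmp7: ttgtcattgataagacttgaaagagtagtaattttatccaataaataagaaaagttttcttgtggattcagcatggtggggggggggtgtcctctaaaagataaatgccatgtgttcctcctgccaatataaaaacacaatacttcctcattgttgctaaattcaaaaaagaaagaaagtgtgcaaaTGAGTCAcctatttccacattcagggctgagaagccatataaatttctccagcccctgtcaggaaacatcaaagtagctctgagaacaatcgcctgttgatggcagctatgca
Mmp10: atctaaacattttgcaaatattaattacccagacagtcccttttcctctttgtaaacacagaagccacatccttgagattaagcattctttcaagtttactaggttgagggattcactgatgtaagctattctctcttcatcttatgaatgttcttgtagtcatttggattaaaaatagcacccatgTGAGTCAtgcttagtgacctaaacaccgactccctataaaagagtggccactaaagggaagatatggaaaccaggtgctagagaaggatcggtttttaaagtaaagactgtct
The motif began -46 bases from the start in Mmp3, -44 in Mmp12, -63 in Mmp7 and -63 in Mmp10. These positions count from the annotated start. TATAAA, the TATA box motif, began at -7 in Mmp3 and at 5, after the start, in Mmp12, against -29 in Mmp10. Whether the annotated starts are placed alike in these genes was not tested, so the positions are not compared between them. The AP-1 motif was present in 7 of the 39 windows of the 36 members that have one (17.9%), against 5.2% of all 32851 windows of this length. These 7 windows belong to 7 members. All 7 members (Mmp1a, Mmp1b, Mmp3, Mmp7, Mmp10, Mmp12 and Mmp13) belong to the group of 10 neighbours. A match describes letters in a window and does not show that a factor binds there.

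The libraries held 7824764 to 10757779 reads, and 0.259% to 0.333% of them fell on the 51 members. Srgn had 776 to 1301 reads in wild-type and 0 to 12 in Srgn-knockout libraries, and its log2 fold change was -8.18 (SE 0.508; edgeR adjusted p = 9.44e-05). The adipocyte markers Adipoq, Lep, Plin1, Cidec, Lipe and Fabp4 summed to 28906 to 36214 CPM (reads per 1000000, scaled by library size and TMM factors) in wild-type and 28162 to 33978 CPM in Srgn-knockout libraries. Epididymis markers (11 genes of a list of 12 are in the table) summed to 0.764 to 957 CPM in wild-type, against 1.28 to 8291 CPM in Srgn-knockout, high in wild-type 4 and Srgn-knockout 3 and 5. Because the tissue was taken whole, fewer cells of a type and less RNA per cell cannot be told apart.

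Of the 51 members, 50 had at least 1 read in some library and 37 passed the filter on low counts (13 MMPs, 4 TIMPs, 15 ADAMTS proteases and 5 ADAMTS-like proteins). The 14 others had few reads, from 0 for Mmp1a to 83 for Mmp13 over all 10 libraries. Mmp1a, a mouse relative of interstitial collagenase, had 0 reads in all 10 libraries, which allows up to 0.279 to 0.383 CPM, the level of 3 reads, counting error only. Mmp1b and Mmp21 had 1 read each over all libraries, Mmp20 (an enamel protease) and Adamts13 (which cuts von Willebrand factor) 2 each, Mmp24 5 and Mmp10 8. Mmp16 had 18, Mmp8 (the neutrophil collagenase) 24, Adamts19 29, Adamts18 40, Mmp25 49 and Mmp13 (a collagenase of bone and cartilage) 83. The last, Adamts20, was read 1, 1, 7, 0 and 1 times in wild-type libraries 1 to 5, against 5, 12, 9, 8 and 6 times in Srgn-knockout libraries 1 to 5. Of the collagenases Mmp1a, Mmp1b, Mmp8 and Mmp13, none passed the filter, although Mmp13 had 5 to 12 reads in every library. With no filter 50 members were tested and 0 passed between the genotypes.

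No member passed the test between the genotypes. Among the 37 tested members 0 had an edgeR adjusted p under 0.05, and DESeq2, limma-voom and limma-trend also called 0 members. Over all 12719 tested genes 1 passed in edgeR (0.00786%), which is Srgn, while the DESeq2 Wald test called 221 (1.74%). In edgeR at an unadjusted p under 0.05 there were 4 members (10.8%), against 12.8% of all tested genes, 2 higher in Srgn-knockout (Mmp7 and Adamts8; 6.77% of all genes) and 2 lower (Mmp9 and Mmp15; 6.06%). The share is near the background. Adamts8 passed the filter on low counts mainly through Srgn-knockout libraries, the group where it was higher. Values were higher in Srgn-knockout for 20 of 37 members (54.1%), against 49.7% of all genes. The median log2 fold change was 0.06 for the members and -0.00138 for all genes, and the median size of the change, regardless of sign, was 0.184 and 0.163. For 0 members did the 5 Srgn-knockout libraries lie wholly above or below the 5 wild-type libraries, against 2.78% of all genes. The smallest adjusted p of a member was 0.346, that of Mmp7. The count of 4 moved with single libraries, and so did the share of all genes. The count was 1 when wild-type 2 or 4 or Srgn-knockout 2 or 5 was dropped, against 9.42%, 9.65%, 9.05% and 9.98% of genes. It was 2 without Srgn-knockout 3 (8.7% of genes) and 0 without the 3 libraries rich in epididymis markers (4.17% of genes).

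**Figure D1:**
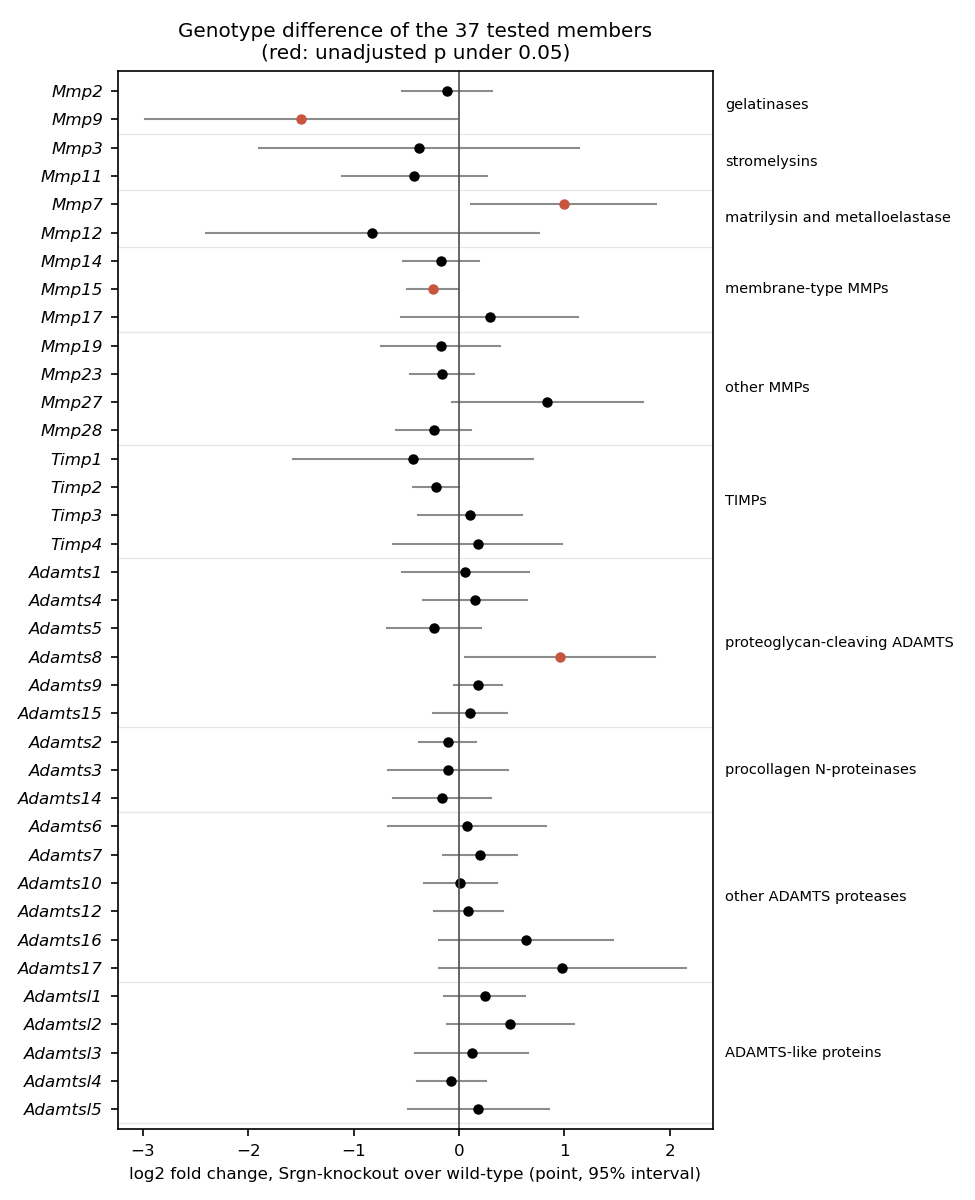
Log2 fold change of Srgn-knockout over wild-type for the 37 tested members, grouped by role, with points for the edgeR estimate and lines for its 95% interval. The 4 red points (Mmp9, Mmp7, Mmp15 and Adamts8) have an unadjusted p under 0.05, and none of the 37 passed after adjustment over all genes.

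The gelatinases degrade denatured collagen and basement membrane. In wild-type 1 to 5 Mmp2 stood at 22.6, 34.1, 36.3, 34.7 and 56.3 CPM, and in Srgn-knockout 1 to 5 at 36.7, 34.0, 38.3, 28.5 and 32.2 CPM. Its means were 36.8 ± 12.2 and 33.9 ± 3.87 CPM (SD, n = 5), which gives a log2 fold change of -0.11 (SE 0.195) with an edgeR adjusted p of 0.837. The groups overlapped, and both the lowest and the highest library were wild-type. The level of Mmp9 was 4.04, 29.8, 2.94, 5.03 and 2.92 CPM in the wild-type libraries 1 to 5, against 2.45, 3.41, 3.93, 4.08 and 2.08 CPM in the Srgn-knockout libraries 1 to 5. Wild-type 2 stood far above all other libraries, which overlapped between the genotypes. The log2 fold change of Mmp9 was -1.50 (SE 0.671), from means of 8.95 ± 11.7 and 3.19 ± 0.891 CPM (SD, n = 5), with an unadjusted p of 0.0475 and an edgeR adjusted p of 0.385. Without wild-type 2 it was -0.23 (adjusted p = 0.816). Neutrophils are known to store MMP-9, and their part in the value of wild-type 2 was not tested. Of 9 neutrophil markers 3 were tested, Mpo and Ngp were at 0 in all 10 libraries and Ly6g in 9, and the summed level was 7.70 to 65.6 CPM in wild-type, against 17.6 to 61.0 CPM in Srgn-knockout. S100a8, which rose with the macrophage marker level described below at 1.09 (SE 0.214; edgeR adjusted p = 0.00720), made up most of that sum and was at 41.6 CPM in wild-type 2, below wild-type 3 at 57.9 CPM, wild-type 4 at 43.0 CPM and Srgn-knockout 1 at 56.9 CPM.

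Among the stromelysins, Mmp3 cuts many matrix proteins and activates other pro-MMPs. For Mmp3 the wild-type libraries 1 to 5 gave 2.50, 14.05, 31.7, 24.5 and 24.3 CPM and the Srgn-knockout libraries 1 to 5 gave 35.9, 3.19, 5.60, 15.3 and 14.1 CPM. It was low in wild-type 1 and Srgn-knockout 2 and 3 and high in Srgn-knockout 1 and wild-type 3, so both genotypes held low and high libraries. Between the genotypes Mmp3 had a log2 fold change of -0.38 (SE 0.684) with an edgeR adjusted p of 0.847. Its means were 19.4 ± 11.3 and 14.8 ± 12.9 CPM (SD, n = 5). Its log2 fold change came to -1.02 without Srgn-knockout 1 and 0.01 without the 3 epididymis-rich libraries, so even its sign depended on the libraries used. Mmp11 was at 13.7, 9.94, 4.87, 5.61 and 16.7 CPM in wild-type libraries 1 to 5, compared with 6.27, 7.59, 9.41, 6.25 and 8.20 CPM in Srgn-knockout libraries 1 to 5. Wild-type libraries spanned the Srgn-knockout range on both sides. Group means of Mmp11 were 10.2 ± 5.10 and 7.54 ± 1.34 CPM (SD, n = 5), with a log2 fold change of -0.43 (SE 0.316), an edgeR adjusted p of 0.590.

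Matrilysin, encoded by Mmp7, is a small MMP made mainly by epithelial cells, and Mmp12 encodes the elastase of macrophages. In wild-type 1 to 5 Mmp7 stood at 20.8, 14.1, 47.1, 18.4 and 13.9 CPM, and in Srgn-knockout 1 to 5 at 25.5, 69.3, 59.5, 27.6 and 46.6 CPM. All Srgn-knockout libraries lay above 4 of the wild-type libraries, and wild-type 3 lay above 3 of them. Its means were 22.9 ± 13.9 and 45.7 ± 19.3 CPM (SD, n = 5), which gives a log2 fold change of 0.99 (SE 0.396) with an unadjusted p of 0.0299 and an edgeR adjusted p of 0.346. Without the 3 epididymis-rich libraries the log2 fold change was 0.76, with the same sign and an unadjusted p of 0.178. The level of Mmp12 was 9.91, 45.5, 142, 106 and 278 CPM in the wild-type libraries 1 to 5, against 97.4, 25.4, 44.4, 99.5 and 61.1 CPM in the Srgn-knockout libraries 1 to 5. It had the widest range of the tested members, 28.0-fold from wild-type 1 to wild-type 5, both wild-type. The log2 fold change of Mmp12 was -0.82 (SE 0.708), from means of 116 ± 104 and 65.6 ± 32.6 CPM (SD, n = 5), with an edgeR adjusted p of 0.650. The log2 fold change was -0.21 without wild-type 5.

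Membrane-type MMPs act at the cell surface, and the one encoded by Mmp14 activates pro-MMP-2. For Mmp14 the wild-type libraries 1 to 5 gave 51.4, 67.8, 74.1, 55.1 and 95.4 CPM and the Srgn-knockout libraries 1 to 5 gave 77.3, 56.3, 61.7, 54.1 and 56.0 CPM. Between the genotypes Mmp14 had a log2 fold change of -0.17 (SE 0.166) with an edgeR adjusted p of 0.691. Its means were 68.8 ± 17.5 and 61.1 ± 9.52 CPM (SD, n = 5). Mmp15 was at 54.7, 49.8, 46.6, 48.6 and 39.4 CPM in wild-type libraries 1 to 5, compared with 35.4, 46.2, 44.2, 36.7 and 38.5 CPM in Srgn-knockout libraries 1 to 5. The 3 lowest libraries were Srgn-knockout, and the ranges overlapped. Group means of Mmp15 were 47.8 ± 5.56 and 40.2 ± 4.74 CPM (SD, n = 5), with a log2 fold change of -0.25 (SE 0.111), an unadjusted p of 0.0423 and an edgeR adjusted p of 0.377. Mmp17 had 1.53 ± 0.810 CPM in wild-type, against 1.90 ± 0.472 CPM in Srgn-knockout (SD, n = 5) and did not pass either.

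Of the remaining MMPs, Mmp19 encodes a widely expressed basement membrane protease. In wild-type 1 to 5 Mmp19 stood at 131, 243, 269.9, 269 and 305 CPM, and in Srgn-knockout 1 to 5 at 273, 133, 167, 298 and 208 CPM. The same 3 libraries as for Mmp3 (wild-type 1, Srgn-knockout 2 and 3) were lowest. Its means were 244 ± 66.7 and 216 ± 69.4 CPM (SD, n = 5), which gives a log2 fold change of -0.17 (SE 0.256) with an edgeR adjusted p of 0.806. The level of Mmp27 was 0.481, 0.573, 1.22, 0.572 and 1.73 CPM in the wild-type libraries 1 to 5, against 1.18, 1.87, 1.19, 1.53 and 2.30 CPM in the Srgn-knockout libraries 1 to 5. It rests on 113 reads over all libraries, and the groups overlapped. It had 10 reads or more in all Srgn-knockout libraries but only in wild-type 3 and 5. The filter thus kept it mainly through the group where it was higher. The log2 fold change of Mmp27 was 0.84 (SE 0.416), from means of 0.914 ± 0.541 and 1.61 ± 0.476 CPM (SD, n = 5), with an edgeR adjusted p of 0.418. Mmp23 had 39.9 ± 6.08 and 35.7 ± 6.23 CPM and Mmp28 55.5 ± 14.5 and 47.0 ± 4.28 CPM for wild-type and for Srgn-knockout (SD, n = 5), with log2 fold changes of -0.16 and -0.24.

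The 4 TIMPs were all well read and differed between libraries in different ways. For Timp1 the wild-type libraries 1 to 5 gave 10.7, 39.7, 51.7, 45.0 and 64.5 CPM and the Srgn-knockout libraries 1 to 5 gave 65.9, 13.6, 14.6, 36.9 and 24.5 CPM. Timp1, which is induced in inflamed and fibrotic tissue, ranged 6.17-fold and was lowest in the same 3 libraries as Mmp3 and Mmp19. Between the genotypes Timp1 had a log2 fold change of -0.44 (SE 0.515) with an edgeR adjusted p of 0.750. Its means were 42.3 ± 19.96 and 31.1 ± 21.6 CPM (SD, n = 5). Its log2 fold change was -0.92 without Srgn-knockout 1. Timp4 was at 349.7, 159, 137, 145 and 86.0 CPM in wild-type libraries 1 to 5, compared with 109.7, 256, 270.3, 189 and 167 CPM in Srgn-knockout libraries 1 to 5. Timp4, an inhibitor whose expression is restricted to few tissues, fat among them, was highest where Timp1 was lowest (wild-type 1, Srgn-knockout 2 and 3). Group means of Timp4 were 175 ± 101 and 198 ± 65.9 CPM (SD, n = 5), with a log2 fold change of 0.18 (SE 0.361), an edgeR adjusted p of 0.866. Without wild-type 1 the log2 fold change was 0.59. In wild-type 1 to 5 Timp2 stood at 494, 534, 529.6, 516 and 670.4 CPM, and in Srgn-knockout 1 to 5 at 445, 482, 441, 509 and 481 CPM. Timp2, which also takes part in the activation of pro-MMP-2, ranged 1.52-fold, the least of the 4, and wild-type 5 was highest. Its means were 549 ± 69.8 and 472 ± 28.4 CPM (SD, n = 5), which gives a log2 fold change of -0.22 (SE 0.1005) with an edgeR adjusted p of 0.390. Timp3, which is bound to the matrix and also inhibits ADAMTS proteases, had 204 ± 42.8 CPM in wild-type, against 219 ± 67.8 CPM in Srgn-knockout (SD, n = 5; log2 0.10). Timp1, Timp3 and Timp4 lie within the synapsin genes Syn1, Syn3 and Syn2, and whether reads were counted by strand is not given. Without TMM factors the host genes had no more than 3.58 CPM (Syn1), 6.46 CPM (Syn3) and 15.5 CPM (Syn2) in a library.

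**Figure D2:**
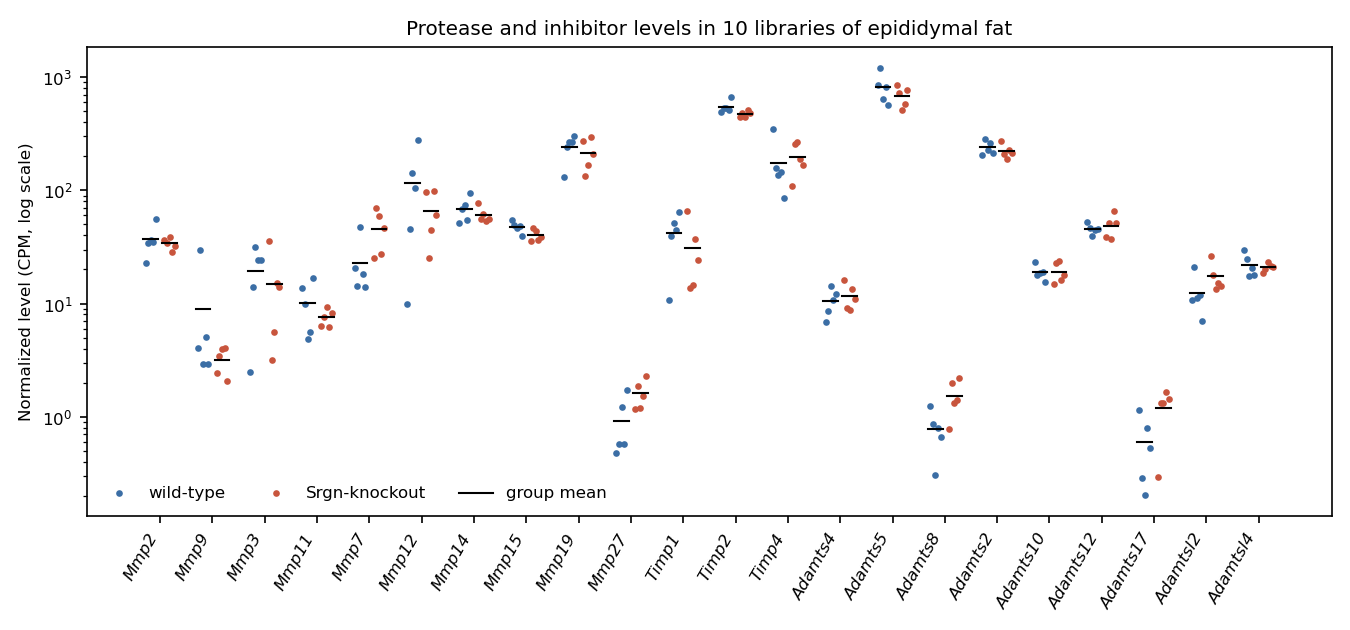
Normalized level in CPM (log axis) of the 22 members described library by library, with 5 wild-type and 5 Srgn-knockout points each and a bar for the group mean. The genotypes overlap for every member shown, wild-type 2 stands alone for Mmp9, and Mmp12 spreads 28.0-fold.

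The ADAMTS proteases that cut proteoglycans such as versican and aggrecan are read here as 6 tested genes. The level of Adamts5 was 845, 1198, 636, 816 and 563 CPM in the wild-type libraries 1 to 5, against 851, 732, 511, 578 and 769 CPM in the Srgn-knockout libraries 1 to 5. Adamts5 encodes an aggrecanase and was highest in wild-type 2 and lowest in Srgn-knockout 3. The log2 fold change of Adamts5 was -0.24 (SE 0.204), from means of 812 ± 246 and 688 ± 140.0 CPM (SD, n = 5), with an edgeR adjusted p of 0.645. For Adamts8 the wild-type libraries 1 to 5 gave 1.25, 0.860, 0.305, 0.801 and 0.664 CPM and the Srgn-knockout libraries 1 to 5 gave 0.784, 1.98, 1.31, 1.40 and 2.19 CPM. Adamts8 was low in all libraries, with 105 reads in total, and the group ranges overlapped through wild-type 1 and Srgn-knockout 1. It had 10 reads or more only in wild-type 1 and Srgn-knockout 2 to 5. The filter thus kept it mainly through the group where it was higher. Between the genotypes Adamts8 had a log2 fold change of 0.96 (SE 0.415) with an unadjusted p of 0.0390 and an edgeR adjusted p of 0.369. Its means were 0.776 ± 0.342 and 1.53 ± 0.560 CPM (SD, n = 5). Adamts4 was at 6.83, 8.60, 14.2, 10.8 and 12.1 CPM in wild-type libraries 1 to 5, compared with 16.0, 9.13, 8.81, 13.4 and 10.9 CPM in Srgn-knockout libraries 1 to 5. Group means of Adamts4 were 10.5 ± 2.89 and 11.6 ± 3.03 CPM (SD, n = 5), with a log2 fold change of 0.15 (SE 0.226), an edgeR adjusted p of 0.805. The others had 116 ± 34.0 and 121 ± 52.6 CPM (Adamts1), 56.6 ± 7.87 and 64.2 ± 4.24 CPM (Adamts9) and 20.3 ± 4.10 and 21.9 ± 3.27 CPM (Adamts15) for wild-type and for Srgn-knockout (SD, n = 5). Adamts9 had the narrowest range of the 37 tested members, 1.48-fold between the lowest and the highest library.

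Procollagen N-proteinases remove the amino-terminal propeptide of fibrillar procollagens. In wild-type 1 to 5 Adamts2 stood at 207, 287, 227, 265 and 215 CPM, and in Srgn-knockout 1 to 5 at 274, 209.7, 188, 229 and 213 CPM. Adamts2, whose main substrates are the procollagens of type I and III, was highest in wild-type 2 and lowest in Srgn-knockout 3, and the genotypes overlapped. Its means were 240.0 ± 34.6 and 223 ± 32.0 CPM (SD, n = 5), which gives a log2 fold change of -0.11 (SE 0.123) with an edgeR adjusted p of 0.740. Adamts3 and Adamts14, with related activity, had log2 fold changes of -0.10 and -0.16, so all 3 had slightly lower values and 0 passed the test. Among all tested genes 49.7% had higher values in Srgn-knockout. The main substrates, as background to these values, had 789 ± 235 and 781 ± 74.5 CPM for Col1a1, 511 ± 123 and 686 ± 19.8 CPM for Col1a2 and 769 ± 152 and 916 ± 76.2 CPM for Col3a1 for wild-type and for Srgn-knockout (SD, n = 5; edgeR adjusted p = 0.980, 0.270 and 0.480).

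Among the other ADAMTS proteases 6 were tested, and 6 had higher values in Srgn-knockout, against 49.7% of all genes, with 0 past the threshold. The level of Adamts12 was 52.5, 46.9, 39.9, 44.7 and 45.4 CPM in the wild-type libraries 1 to 5, against 38.4, 51.7, 37.3, 65.4 and 51.5 CPM in the Srgn-knockout libraries 1 to 5. Adamts12, which can cut cartilage oligomeric matrix protein, was highest in Srgn-knockout 4 and lowest in Srgn-knockout 3. The log2 fold change of Adamts12 was 0.09 (SE 0.149), from means of 45.9 ± 4.52 and 48.9 ± 11.5 CPM (SD, n = 5), with an edgeR adjusted p of 0.829. For Adamts17 the wild-type libraries 1 to 5 gave 1.15, 0.287, 0.203, 0.801 and 0.531 CPM and the Srgn-knockout libraries 1 to 5 gave 0.294, 1.32, 1.31, 1.66 and 1.42 CPM. It had 80 reads in all, and Srgn-knockout 1 lay among the lowest wild-type libraries. Adamts17 had 10 reads or more only in wild-type 1 and Srgn-knockout 2 to 5. Like Adamts8, it was kept by the filter mainly through the group where it was higher. Between the genotypes Adamts17 had a log2 fold change of 0.98 (SE 0.540) with an edgeR adjusted p of 0.467. Its means were 0.595 ± 0.390 and 1.20 ± 0.526 CPM (SD, n = 5). Adamts10 was at 23.5, 18.0, 18.7, 19.0 and 15.4 CPM in wild-type libraries 1 to 5, compared with 14.9, 22.9, 23.6, 16.1 and 18.0 CPM in Srgn-knockout libraries 1 to 5. Adamts10, which is tied to fibrillin microfibrils, was at almost equal means in both groups (18.9 ± 2.93 and 19.1 ± 3.95 CPM). Its log2 fold change of 0.01 (SE 0.159) kept its sign in 12 of 18 alternatives. Adamts6, Adamts7 and Adamts16 had log2 fold changes of 0.07, 0.20 and 0.64.

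ADAMTS-like proteins have the binding domains of the family without the protease and lie in microfibrils. In wild-type 1 to 5 Adamtsl2 stood at 10.7, 21.2, 11.2, 11.8 and 7.03 CPM, and in Srgn-knockout 1 to 5 at 26.2, 17.8, 13.3, 15.2 and 14.4 CPM. Adamtsl2 binds fibrillin-1 and a latent TGF-beta binding protein, and its highest libraries were Srgn-knockout 1 and wild-type 2. Group means of Adamtsl2 were 12.4 ± 5.28 and 17.4 ± 5.18 CPM (SD, n = 5), with a log2 fold change of 0.49 (SE 0.275), an edgeR adjusted p of 0.482. The level of Adamtsl4 was 29.5, 24.6, 17.5, 20.7 and 17.8 CPM in the wild-type libraries 1 to 5, against 18.7, 20.1, 23.3, 21.6 and 21.1 CPM in the Srgn-knockout libraries 1 to 5. Its means were 22.0 ± 5.05 and 21.0 ± 1.71 CPM (SD, n = 5), which gives a log2 fold change of -0.07 (SE 0.1499) with an edgeR adjusted p of 0.869. Adamtsl1, Adamtsl3 and Adamtsl5 had log2 fold changes of 0.24, 0.12 and 0.18. Of the 5 genes 4 had higher values in Srgn-knockout, against 49.7% of all genes, with 0 past the threshold.

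Within the genotypes, the level of some members moved with that of macrophage markers. Timp1, Mmp3, Mmp12 and Mmp19 were higher where these markers were higher, and Timp4 was lower. Macrophage marker level, the mean centred log2 CPM of 13 markers that hold no member, was -0.83, 0.24, 0.54, 0.25 and 0.83 in wild-type libraries 1 to 5, against 0.39, -0.71, -0.60, 0.17 and -0.29 in Srgn-knockout 1 to 5. The markers were Adgre1, Cd68, Csf1r, Lyz2, Cd14, Mrc1, Aif1, C1qb, C1qc, Itgam, Fcgr1, Mertk and Ms4a7. All 13 had lower values in Srgn-knockout (median log2 -0.43), and 0 passed after adjustment. The unadjusted edgeR p was under 0.05 for 3 of them (Lyz2, C1qc and Cd14), where 6.06% of all genes were lower at that p. The mean level of the markers did not differ between the genotypes beyond the spread of the libraries (Srgn-knockout minus wild-type -0.41, two-sided exact permutation p = 0.302, n = 5 in each group). With the genotype in the model, 10 of 37 members (27.0%) had a slope on this level with an edgeR adjusted p under 0.05, against 23.1% of the 12706 tested genes outside the marker list. How the members compare with all genes depended on 1 library: without wild-type 1, 7 of 37 members (18.9%) passed, against 7.28% of genes. Of the 10 members that passed with all 10 libraries, 6 rose with macrophage level (16.2%, against 13.7% of genes) and 4 fell (10.8%, against 9.35%). Slopes are log2 changes for 1 SD of the marker level, which is 0.569 on its log2 scale.

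Timp1 had a slope of 0.99 (SE 0.0714; edgeR adjusted p = 2.88e-07). Steeper but less precise slopes were those of Mmp12 at 1.36 (SE 0.203; edgeR adjusted p = 0.00220) and Mmp3 at 1.34 (SE 0.189; edgeR adjusted p = 6.06e-04). Mmp19 rose with a slope of 0.47 (SE 0.0546; edgeR adjusted p = 2.38e-05), and Adamts4 and Mmp14 with 0.37 (SE 0.0806; edgeR adjusted p = 0.00413) and 0.22 (SE 0.0650; edgeR adjusted p = 0.0217). In the opposite direction, Timp4 had a slope of -0.61 (SE 0.0654; edgeR adjusted p = 1.70e-05). Adamts10, Adamtsl4 and Mmp15 fell by less per SD, with slopes of -0.24 (SE 0.0596; edgeR adjusted p = 0.00845), -0.20 (SE 0.0625; edgeR adjusted p = 0.0342) and -0.16 (SE 0.0458; edgeR adjusted p = 0.0225). One inhibitor, Timp1, thus rose with the macrophage markers while another, Timp4, fell, and Timp2 did not pass, at 0.08 (SE 0.0489; edgeR adjusted p = 0.277). Markers of other cells moved with the macrophage level as well: 3 of 6 adipocyte markers fell (Adipoq at -0.26 (SE 0.0527; edgeR adjusted p = 0.00266), Plin1 and Lipe), as did 5 of 6 endothelial markers (Kdr at -0.42 (SE 0.0511; edgeR adjusted p = 3.52e-05), Cdh5, Vwf, Tek and Egfl7). The other adipocyte markers did not pass, and they did not all fall: Lep was at 0.28 (SE 0.0981, edgeR adjusted p = 0.0549), Cidec at -0.04 and Fabp4 at -0.05. The endothelial markers summed to 547 to 729.7 CPM in wild-type, against 607 to 843 CPM in Srgn-knockout. Their part in the slopes of the members was not tested. For Mmp9 no slope was detectable, at -0.06 (SE 0.537; edgeR adjusted p = 0.945). In 1 joint fit with a slope for each genotype, all 10 members that passed had the same sign in both. They were chosen by their slope over these same libraries, so the shared sign is no separate support. Timp1 had 0.90 (SE 0.0898) in wild-type against 1.13 (SE 0.103) in Srgn-knockout, and Timp4 -0.65 (SE 0.0814) and -0.53 (SE 0.114). For Adamtsl4, at -0.07 (SE 0.102), and Mmp14, at 0.14 (SE 0.105), the Srgn-knockout slope was about the size of its SE. The test of a difference in slope between the genotypes passed for 0 members and 0% of genes in edgeR. Its smallest unadjusted p among the members was 0.00374, for Mmp2, with a slope of 0.40 in wild-type, against -0.05 in Srgn-knockout (adjusted p = 0.564).

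**Figure D3:**
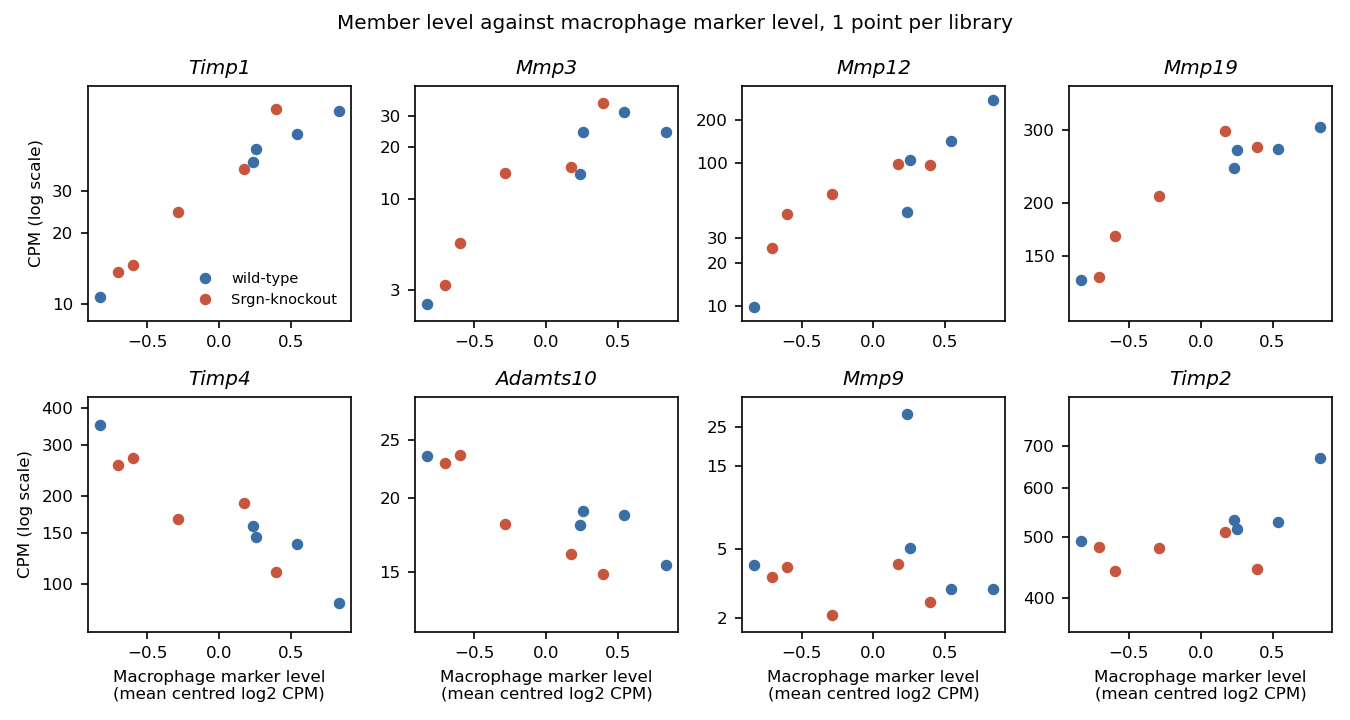
Level in CPM (log axis) of 8 members against the macrophage marker level (mean centred log2 CPM), 1 point per library, blue for wild-type and red for Srgn-knockout. Timp1, Mmp3, Mmp12 and Mmp19 are lowest in wild-type 1 at the left and high in the libraries at the right, Timp4 and Adamts10 fall, and Mmp9 and Timp2 do not pass the test of the slope.

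Fewer slopes passed without wild-type 1 and Srgn-knockout 2, the 2 libraries farthest from the median macrophage level, which both lie at its low end. Of 35 members then tested 3 passed (8.57%; Timp1, Mmp19 and Timp4), against 4.09% of genes. Mmp3 had a slope of 0.84 (edgeR adjusted p = 0.0823) and Mmp12 one of 0.84 (edgeR adjusted p = 0.154), per SD of the libraries kept and with the sign unchanged. Those 3 passed in each of the 16 alternative fits run for the slope. Mesothelial markers, of the cells that cover visceral fat, moved the opposite way. Their level (7 of 7 markers tested, summed 283 to 540.0 CPM in wild-type, against 224 to 488 CPM in Srgn-knockout) was 0.60, 0.09, -0.21, -0.05 and -0.23 in wild-type libraries 1 to 5, against -0.66, 0.52, 0.37, -0.28 and -0.14 in Srgn-knockout 1 to 5, highest in the 3 libraries with the lowest macrophage level. With it in place of macrophage level, 9 members passed (24.3%, against 18.8% of genes), of which 4 rose (7.47% of genes rose) and 5 fell (11.3% of genes fell), among them Timp1 at -0.89 (SE 0.0804; edgeR adjusted p = 1.10e-04), Mmp3 at -1.26 (SE 0.112; edgeR adjusted p = 1.10e-04) and Timp4 at 0.54 (SE 0.0816; edgeR adjusted p = 0.00130). Timp3, which had not passed on macrophage level, was at 0.30 (SE 0.0797; edgeR adjusted p = 0.0235). Which of these marker levels a member follows cannot be told apart in 10 libraries. On the level of 9 progenitor and fibroblast markers, which spanned only -0.18 to 0.29, 0 members and 0% of genes passed in edgeR. The epididymis list has 1 tested marker, Adam7, on whose level 0 members and 0.0629% of genes passed.

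With macrophage level in the model, 0 members differed between the genotypes after adjustment, against 0.48% of genes, and 4 had an unadjusted p under 0.05 (10.8%, against 17.4% of genes). The smallest belonged to Mmp15, at log2 -0.36 (SE 0.0871; edgeR adjusted p = 0.0699). The next were Adamts4 at 0.42, Mmp27 at 1.11 and Mmp28 at -0.33. For Timp1, whose difference was -0.44 without macrophage level, the value was 0.25 (SE 0.126), of the opposite sign and not past the threshold. Timp1 was not alone in this. The sign also changed for Mmp12 (-0.82 without and 0.63 with macrophage level) and Mmp3 (-0.38 and 0.53). It changed as well for Mmp2, Mmp14, Mmp19, Timp3, Timp4, Adamts6 and Adamts10.

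**Figure D4:**
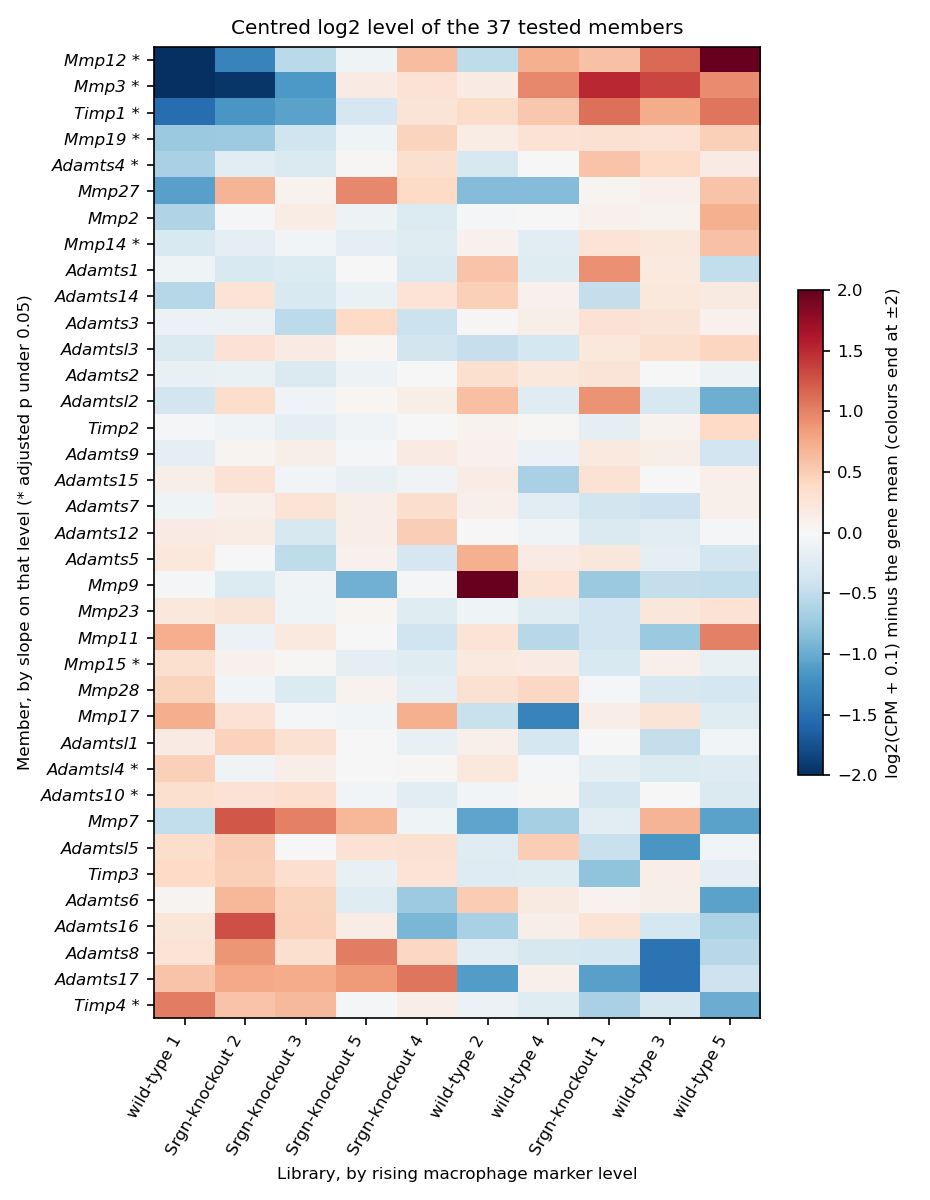
Centred log2 level, log2(CPM + 0.1) minus the gene mean, of the 37 tested members (rows, ordered by slope) in the 10 libraries (columns, ordered by rising macrophage marker level), with colours ending at ±2. The 10 members with a star passed the test of the slope, with Mmp12, Mmp3 and Timp1 at the top and Timp4 at the bottom, and both genotypes are found among the 3 libraries at the left and the 3 at the right.

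Other genes of the same pathway did not pass between the genotypes either. In the plasminogen system and the proprotein convertases, which activate pro-MMPs, 13 of 14 genes were tested and 0 passed in either direction. Their smallest p belonged to Serpine2, a protease inhibitor (119.9 ± 5.31 and 105 ± 14.1 CPM), Pcsk6 (66.8 ± 16.1 and 82.0 ± 16.5 CPM), Plgrkt and Furin. Of 11 tested ADAM proteases, the membrane-bound cousins of the ADAMTS family, 0 passed, with Adam9 at 106 ± 10.7 and 128 ± 13.4 CPM and Adam19 at 43.6 ± 8.88 and 34.0 ± 3.86 CPM. Of 10 tested further inhibitors, inducers and clearance receptors 0 passed. Lrp1, an endocytic receptor that clears protease complexes, had 1202 ± 241 and 865 ± 199 CPM (log2 -0.47, edgeR adjusted p = 0.309), and Bsg, an inducer of MMPs, 435 ± 34.5 and 504 ± 26.6 CPM (log2 0.21). Of 22 tested substrates and partners 0 passed, and 15 had higher values in Srgn-knockout, against 49.7% of all genes. Thbs1, a matricellular protein that ADAMTS1 can cut, had the smallest p, at 719 ± 265 and 314 ± 119 CPM (log2 -1.20, edgeR adjusted p = 0.196). Col1a2 (log2 0.43) and Eln, which encodes elastin (log2 0.58), had the next smallest. In these 4 lists the unadjusted p was under 0.05 for 0, 2, 2 and 4 genes, against 12.8% of all tested genes. On macrophage level 3 of 13 activator genes rose and 1 fell, 6 of 11 ADAM genes rose and 1 fell, 4 of 10 further inhibitors and receptors rose and 3 fell, and 7 of 22 substrates rose and 6 fell, against 13.7% and 9.35% of all genes. Plau, the urokinase protease, at 0.36 (SE 0.0682; edgeR adjusted p = 0.00161), and its receptor Plaur, at 0.40 (SE 0.0559; edgeR adjusted p = 1.41e-04), were among those that rose, chosen for naming after their values were seen.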

How the data were processed

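RNA of 10 samples of mouse epididymal fat was sequenced with Ion AmpliSeq, 1 amplicon per gene, and per the submitters' processing notes the build was mm9; no source used here names the aligner or the counter. The deposited values are raw read counts per amplicon, with a second deposited table in RPM (reads scaled to 1000000 per library) that the authors scaled by the library total. The 2 tables differed by at most 5.91e-04 RPM when recomputed. Samples were grouped by the genotype in their labels, and a sample's number only names it. The labels do not say that each sample is a separate mouse; p-values measure the spread between these samples, which may be technical in part.

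Genes were filtered with filterByExpr (minimum count 10, minimum total 15), scaled by TMM factors and tested two-sided with edgeR 4.0.16 (robust quasi-likelihood) in R 4.3.3, with Benjamini-Hochberg adjustment over all 12719 tested genes and a threshold of 0.05. The filter removed 11211 rows. Printed CPM are scaled by library size and TMM factors. Marker level is the mean of centred log2 CPM (prior count 2), divided by its SD for slopes, which were fitted with the genotype in the model. Genes in a marker list were fitted and adjusted with all others, and left out only when the share of genes that passed was counted. The shares of genes in refits under other settings or with fewer libraries still include them. Depth was 7824764 to 10757779 reads per library, and 3 reads correspond to 0.279 to 0.383 CPM. Levels under 3 reads were taken as undetected. Intervals and floors cover counting error only where so named. Alternatives used DESeq2 1.42.0 and limma 3.58.1 (voom, and trend on log2 of the authors' RPM plus 1). The scripts were tested on simulated data.

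Values in every library are given for the tested member with the most reads and the one with the smallest p in each role, for members with an unadjusted p under 0.05 or groups that do not overlap, and for up to 6 members with a slope past the threshold in each direction; up to 4 genes of smallest p were eligible to be named from each list of other genes. The members and all gene and marker lists were chosen with earlier results of these data known. Promoter windows came from RefSeq tables of GRCm38.p6, matched by symbol for 36 of 51 members. Motifs were searched as exact letters. Overlapping and neighbouring genes were taken by name from the RefSeq annotation, which is of another build than the counts. One gene that overlaps a member is not reported here.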

Additional observations from a re-analysis of the deposited data

Results flagged for a closer look

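Among the 74 groups of 5 libraries (37 members in each genotype), 7 held 1 library whose gap to the nearest of the others was more than 0.71 of the whole range of its group. Independent values with a normal distribution give such a gap in about 1 in 20 groups. The levels here were CPM without a log, and all groups share the same 10 libraries. The count of 7 is therefore not compared with that rate. Mmp9 was at 29.8 CPM in wild-type 2, with the remaining wild-type libraries between 2.92 and 5.03 CPM. Mmp7 was at 47.1 CPM in wild-type 3, with the others between 13.9 and 20.8 CPM. Timp4 reached 349.7 CPM in wild-type 1, the library with the lowest macrophage marker level, against 86.0 to 159 CPM. Timp2 reached 670.4 CPM in wild-type 5, the library with the highest macrophage marker level, against 494 to 534 CPM. Adamts15 was low in wild-type 4, at 13.2 CPM against 20.7 to 23.0 CPM. In Srgn-knockout, both members were set apart by replicate 1. Adamts1 was at 213 CPM there and 91.1 to 113 CPM in the others. Adamts17 was at 0.294 CPM there, which is 3 reads and thus at the floor, and 1.31 to 1.66 CPM in the others.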

How the results depend on the processing

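No member passed the threshold between the genotypes under any of the alternatives run. The count of all genes past it was 1, and became 3 with no low-count filter, 221 with the DESeq2 Wald test (1.74%), and 1 to 2 when 1 library at a time was left out (2 without wild-type 5 and 2 without Srgn-knockout 1). Members at an unadjusted p under 0.05 numbered 4 (12.8% of genes), and 2 with upper-quartile factors (13.1%) and 2 with total counts alone (13.2%). They numbered 0 without the epididymis-rich wild-type 4 and Srgn-knockout 3 and 5 (4.17% of genes). When each library was left out in turn they numbered 1 to 4, against 8.7% to 17.6% of genes. Members with a slope on macrophage level numbered 10, and 3 of 35 tested (8.57%, against 4.09% of genes) without the 2 libraries farthest from the median, and 7 to 12 when each library was left out. The lowest count, 7 (18.9%), came without wild-type 1, where 7.28% of genes passed, and without Srgn-knockout 1, where 18.4% did. For a refit with fewer libraries the slope is per SD of those kept. No value past the threshold changed sign. Signs were followed only for the members described library by library. Among these, the log2 fold change between the genotypes never passed. It changed sign under at least 1 alternative for Mmp2, Mmp3, Timp4, Adamts2, Adamts10, Adamts12 and Adamtsl4. The alternative without the epididymis libraries for the slope, and the alternatives for each single slope, were chosen after seeing the data. Scaling by total counts shifted the median of all genes by 0.05 (log2). The cause of these changes was not tested. No paired analysis was possible because the labels give no replicate number that is shared between the genotypes. Members with few reads, such as Adamts8, Adamts17 and Mmp27, are limited by depth. Of the 14 members removed by the filter, 13 were tested when no filter was used, and 0 passed between the genotypes.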

Other observations

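Of the astacin, tolloid and related metalloproteases, 5 of 7 were tested and 0 passed between the genotypes. The smallest p belonged to Mme, which encodes neprilysin, a membrane peptidase, at 78.0 ± 17.3 CPM in wild-type, against 98.7 ± 10.8 CPM in Srgn-knockout (SD, n = 5; log2 0.34, edgeR adjusted p = 0.379). Bmp1, which removes the carboxy-terminal propeptide of procollagens, was at 125 ± 12.0 and 122 ± 27.1 CPM (log2 -0.03). On macrophage level 1 of the 5 rose and 1 fell, against 13.7% and 9.35% of all genes.

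The TATA box motif TATAAA, searched on the gene strand alone, was in 11 of the 39 member windows (28.2%), against 8.32% of all windows of the same length. GAGGAAGT, an ETS-type motif searched on both strands, was in 3 (7.69%), against 3.2% of all windows. Apart from Adamts1, Adamtsl2 and Mmp21, the members with TATAAA belong to the group of 10 neighbouring MMP genes. The members with GAGGAAGT (Mmp7, Mmp8 and Mmp12) all belong to that group. The shares of both motifs describe letters and were not tested.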
